A study of Capra hircus with 2 samples.

Results

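The desmosome genes DSG1, DSG3, DSC1, DSC2, DSC3, DSP, PKP1, PKP3 and JUP were followed through the layers of the epidermis and through the hair follicle of cashmere goat skin. They were chosen by symbol, and 8 of the 9 were among the 27137 features of the deposited matrix. DSC2 was not analysed here. The series measured skin from the scapular region of healthy Liaoning cashmere goats in anagen, the growth phase of the hair cycle, by single-cell RNA sequencing with the 10x Genomics 3′ kit. The skin came from 1 goat of the coarse type (CT-LCG, 3443 kept cells) and 1 goat of the fine type (FT-LCG, 9608 kept cells), and in both the dead cells were removed after dissociation. No treatment was given in the labels. With 1 library for each type no test was possible, and no p-value is given.

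Desmosomes are spot-like junctions that fasten the keratin filaments of neighbouring epithelial cells to each other. The desmogleins (DSG) and desmocollins (DSC) are cadherins that cross the membrane and bind those of the next cell. Inside the cell the armadillo proteins plakoglobin (JUP) and the plakophilins (PKP) hold the cadherin tails, and desmoplakin (DSP) ties the plaque to keratin. In mammalian epidermis the cadherins are known for their layered use, with DSG3 and DSC3 in the lower layers and DSG1 and DSC1 towards the surface.

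Each captured RNA molecule carried a unique molecular identifier (UMI) and was counted once whatever the length of the transcript. The level of a gene in a cluster is its UMIs per 10000 UMIs of all genes, each summed within 1 library, and differences are log2 ratios of such levels. Where a pair of values stands without a library, the former is from CT-LCG and the latter from FT-LCG. Intervals are 95% intervals, exact Poisson for a level and exact binomial (Clopper-Pearson) for a share or a ratio, and they cover counting error only. Depth differed between the libraries, with 27890472 UMIs in the kept cells of CT-LCG (median 2314 per cell) against 85400323 for FT-LCG (median 6121.5). Over all kept cells DSP had the most UMIs of the 8 genes, with 24316 and 82034, followed by DSG1 with 20415 and 40593. DSG3 had the fewest in CT-LCG, with 352, and PKP1 the fewest in FT-LCG, with 1408.

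The cells were clustered again without the 8 genes and without other junction genes, so that the levels compared did not define the clusters. Each of 7 guide genes then pointed to the cluster where its mean level over both libraries was highest. KRT14, the keratin of the basal layer, was highest in a cluster of 139 and 732 cells, at 248 and 318 UMIs per 10000. KRT10, the keratin of the layers above, was highest in a cluster of 270 and 642 cells, at 402 and 504, and LOR, the loricrin of the granular layer, in a cluster of 135 and 462 cells, at 50.9 and 72.9. Only 35.6% and 62.3% of the cells of this LOR-highest cluster held a LOR UMI, so its levels are not those of LOR-bearing cells alone. KRT6A, an outer root sheath keratin, had its highest mean in a cluster of 82 and 432 cells, but at only 7.04 and 15.3, beside 213 and 141 of KRT10, and the 3 genes leading that cluster were KRT79, EDN1 and KRT6A. In CT-LCG alone KRT6A was higher, at 8.11, in the SFRP1-highest cluster described next.

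SFRP1, a Wnt antagonist of the outer root sheath and bulge, was highest in a cluster of 63 and 500 cells, at 2.99 and 8.31, where LGR5 was among the 10 leading genes. KRT35, a hair cortex keratin, was highest in a cluster of 160 and 311 cells, at 45.6 and 48.0. KRT25 and KRT27 of the inner root sheath were also among the leading genes of that cluster, so it is called by KRT35 alone. The KRT10-highest cluster, led by KRT4, SPINK7 and S100A7A, and the KRT6A-highest cluster likewise had no cell type name from the marker lists. In the KRT35-highest cluster the median depth was 1450.5 and 12629 UMIs per cell. A KRT35 UMI was held by 53.75% and 59.2% of its cells, beside 20.9% and 25.7% of the KRT14-highest cells. The levels of the KRT35-highest cluster are thus not those of KRT35-bearing cells alone.

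TCHH, the trichohyalin of the inner root sheath, had its highest mean in an endothelial-like cluster of 51 and 154 cells, because 1 FT-LCG cell there held 6958 TCHH UMIs. Without that cell the FT-LCG level in the cluster was 0.519 in place of 77.5. The next highest FT-LCG level, 51.7, was in the KRT35-highest cluster, where the CT-LCG level was 14.4, and in CT-LCG TCHH was highest in another cluster, at 22.2. The endothelial-like cluster, with PLVAP, SELE, PECAM1 and VWF among its leading genes, is shown beside the others as cells outside the epidermis and follicle. JUP is also found at adherens junctions, and whether the cluster lacks the other genes was not tested. The cluster is shallow. The cell with the most TCHH also held 135 of the 276 DSP UMIs of the cluster in FT-LCG. It held 49 of the 79 DSC1 UMIs and 42 of the 118 DSG1 UMIs as well. Cells with high TCHH are described on their own further on.

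Between the KRT14-highest and the KRT10-highest cluster, DSG1, DSC1, DSP and JUP were at least 2-fold higher in both libraries and DSG3 was at least 2-fold lower. Thus 4 of 8 genes were higher, where 9.14% of all 8054 genes compared were, and 1 of 8 was lower, where 5.21% were. The median log2 ratio of the 8 genes was 0.92 and 0.89, beside 0.20 and 0.08 for all genes. PKP1, PKP3 and DSC3 differed by less than 2-fold in each library.

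DSG1, the main desmoglein of the upper epidermis, had levels of 2.96 (2.69 to 3.25) and 2.13 (2.02 to 2.24) in the KRT14-highest cluster. They were 10.97 (10.7 to 11.2) and 8.81 (8.64 to 8.99) in the KRT10-highest cluster, and 7.17 and 4.98 in the LOR-highest cluster. The level was thus highest in the KRT10-highest cluster of both libraries, with log2 ratios over the KRT14-highest cluster of 1.89 (1.75 to 2.03) and 2.05 (1.97 to 2.13), and the values of the clusters did not overlap between libraries. The endothelial-like cluster, which should lack DSG1, had levels of 1.91 (1.35 to 2.60) and 1.31 (1.08 to 1.56), and the latter was 0.897 (0.706 to 1.12) without the cell with the most TCHH.

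DSC1, the desmocollin that accompanies DSG1, had levels of 1.07 and 0.749 in the KRT14-highest cluster of CT-LCG and FT-LCG, 5.06 and 4.61 in the KRT10-highest cluster, and 3.90 and 2.95 in the LOR-highest cluster. Of the genes that were higher it had the largest log2 ratios between the KRT10-highest and KRT14-highest clusters, 2.24 (2.01 to 2.48) and 2.62 (2.49 to 2.75). The levels of 1.12 (0.712 to 1.69) and 0.874 (0.692 to 1.09) in the endothelial-like cluster overlapped those of the KRT14-highest cluster, but without the cell with the most TCHH the FT-LCG level was 0.354 (0.239 to 0.505), below the KRT14-highest cluster. Thinned to 1000 UMIs, 7.91% (4.02 to 13.7) and 8.47% (6.56 to 10.7) of the KRT14-highest cells had a DSC1 UMI, beside 8.89% (2.48 to 21.2) and 3.62% (1.19 to 8.25) of the endothelial-like cells.

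DSG3, the desmoglein of the basal layer, went the other way at low counts. The KRT14-highest cluster held 29 and 154 DSG3 UMIs, for levels of 0.194 and 0.220. The KRT10-highest cluster held 22 and 65, for levels of 0.0304 and 0.0586, and the LOR-highest cluster 4 and 21, for levels of 0.0146 and 0.0265. The log2 ratio of the KRT10-highest over the KRT14-highest cluster was -2.68 (-3.54 to -1.83) and -1.90 (-2.35 to -1.48). DSG3 passed the minimum of 50 UMIs in CT-LCG narrowly, and in the endothelial-like cluster it had 1 UMI and 0 UMIs, or 0.0488 (0.00124 to 0.272) and 0 per 10000. This interval spans the CT-LCG levels of all 3 clusters. DSG3 was no longer lower by this rule with a resolution 0.2 higher, with cells of at least 1000 genes or without the 5% of cells with the most UMIs.

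DSC3, the desmocollin of the lower layers, had levels of 2.03 and 2.10 in the KRT14-highest cluster, 1.73 and 1.68 in the KRT10-highest cluster and 0.469 and 0.766 in the LOR-highest cluster. It stayed within 2-fold in the former step, with log2 ratios of -0.23 and -0.32, and was lower in the latter, with -1.89 (-2.16 to -1.62) and -1.13 (-1.27 to -0.998). DSC3 was the only one of 7 genes compared that was lower by 2-fold in the LOR-highest than in the KRT10-highest cluster in both libraries, where 5.32% of all genes were, and 0 of 7 were higher, where 3.47% were. DSG3 had log2 ratios of -1.06 and -1.14 in that step on fewer than 50 UMIs in CT-LCG. With cells thinned to the same depth, 20 principal components, no Harmony or the desmosome genes allowed to define clusters, DSC3 no longer passed 2-fold. In the KRT10-highest cluster DSC3 was above the endothelial-like level of 0.440 and 0.465.

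**Figure D1:**
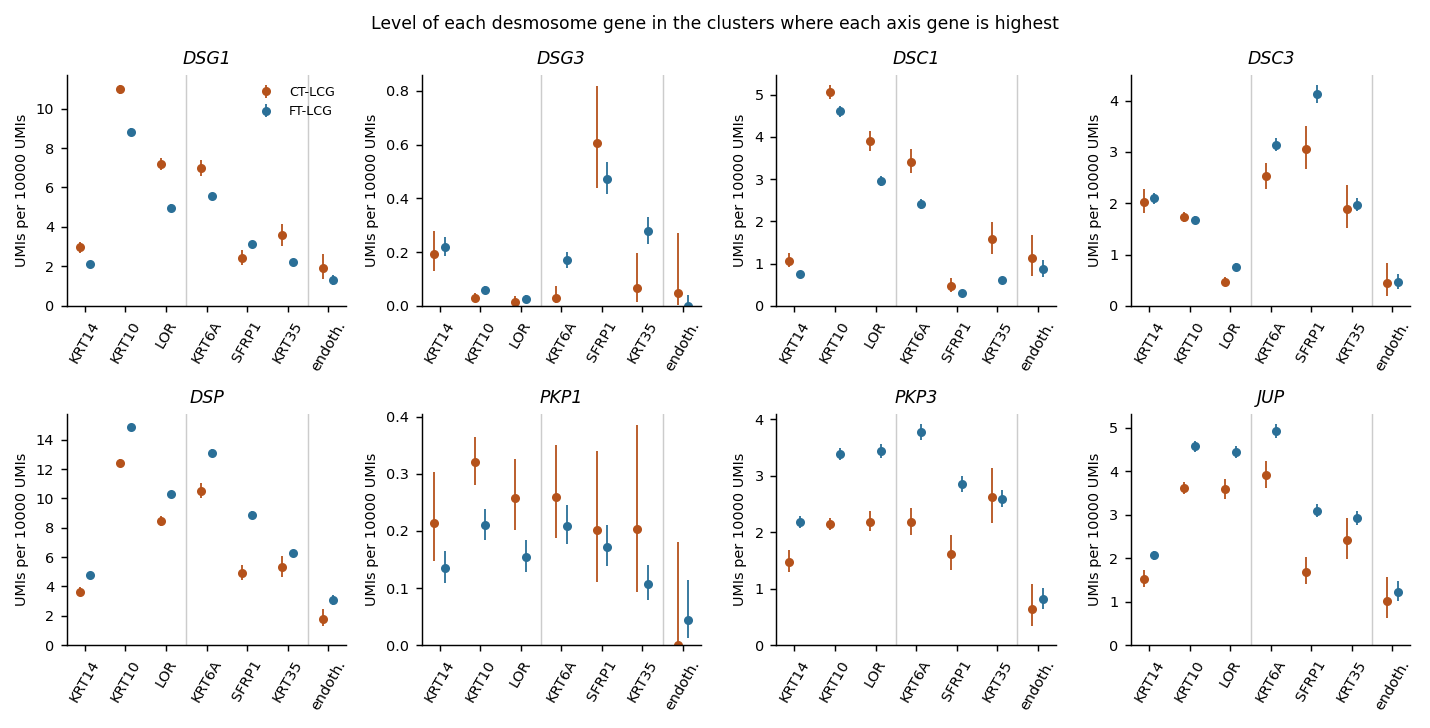
Level of each gene (UMIs per 10000 UMIs, linear axis from 0) in the clusters where KRT14, KRT10, LOR, KRT6A, SFRP1 or KRT35 is highest and in the endothelial-like cluster, for CT-LCG and FT-LCG, with bars for the 95% Poisson interval. DSG1, DSC1 and DSP are highest in the KRT10-highest cluster, at 10.97, 5.06 and 12.4 in CT-LCG, and DSG3 and DSC3 in the SFRP1-highest cluster, at 0.606 and 3.06.

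Among the plaque proteins, DSP had levels of 3.62 and 4.80 in the KRT14-highest cluster, 12.4 and 14.9 in the KRT10-highest cluster and 8.47 and 10.3 in the LOR-highest cluster. Its log2 ratios of the KRT10-highest over the KRT14-highest cluster were 1.78 (1.66 to 1.91) and 1.63 (1.57 to 1.68). JUP, which is also found at adherens junctions, had levels of 1.52 and 2.07, then 3.62 and 4.58, then 3.58 and 4.44. It was therefore higher in both upper clusters and hardly differed between them, with log2 ratios of -0.02 (-0.12 to 0.09) and -0.04 (-0.10 to 0.02).

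PKP3, the plakophilin found in most epithelia, had levels of 1.47 and 2.18, then 2.13 and 3.37, then 2.19 and 3.43, and its log2 ratios in the former step were 0.53 and 0.63. PKP1, a plakophilin of the upper epidermis, was rare in all 3 clusters, between 0.135 and 0.321. Its log2 ratios of 0.58 (0.04 to 1.16) and 0.63 (0.28 to 0.99) were close to those of PKP3. Over the 6 clusters named by a guide gene, the highest PKP3 level was 1.78 and 1.73 times the lowest and the highest PKP1 level 1.59 and 1.97 times, less than for each of the other 6 genes.

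The share of UMIs from named ribosomal protein genes was 30.2% and 31.6% in the KRT14-highest cluster and 20.9% and 22.4% in the KRT10-highest cluster. With these genes left out of the total, 3 genes were higher by 2-fold, and JUP was not among them. With the 5% of cells highest in each guide gene in place of clusters, DSG1 and DSC1 were higher and DSP and JUP were not. DSP also missed 2-fold with 20 principal components or no Harmony and JUP with cells thinned to 1000 UMIs, whereas DSG1 and DSC1 passed under each setting tried. Compared with the KRT14-highest cluster, the LOR-highest cluster had DSG1, DSC1, DSP and JUP higher (4 of 7, background 12.3%) and DSC3 lower (1 of 7, background 10.1%).

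The KRT14-highest cluster was 1 of 3 named basal from the marker lists. In all 3 KRT14 was the only basal marker among the 10 leading genes. The cluster led by KRT9 had KRT14 at 112 and 307 UMIs per 10000 and KRT10 at 214 and 167, and the cluster led by MMP3 had KRT14 at 117 and 282 and KRT10 at 193 and 83.8, so that KRT10 exceeded KRT14 in both clusters of CT-LCG. DSG1 had levels of 4.95 and 4.27 in the former cluster and 6.47 and 4.40 in the latter. DSG3 was between 0.164 and 0.374 there. These levels lay between those of the KRT14-highest and KRT10-highest clusters for DSG1, whereas DSG3 was highest in 1 of these other basal clusters of FT-LCG, at 0.374 beside 0.220 in the KRT14-highest cluster.

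Between low and high KRT10 the same order of DSG1, DSC1, DSG3 and DSP was seen in another arrangement, drawn in part from the same cells. KRT14 and KRT10, which picked the KRT14-highest and KRT10-highest clusters, also set this arrangement, so it is no separate evidence for the order. In this arrangement the cells of the basal, KRT10-highest and LOR-highest clusters were ordered by the KRT10 share of their KRT14 and KRT10 UMIs. At least 20 of these UMIs were held by 1056 of 1158 such CT-LCG cells, and by 3626 of 3717 FT-LCG cells. Cells over 0.9 were split at the middle of their order by LOR level, and those without a LOR UMI were ordered by depth. In CT-LCG the part called the cells with more LOR thus also took in deeper cells without a LOR UMI. From the lowest bin (share under 0.1) through 0.1 to 0.5 and 0.5 to 0.9 to the cells over 0.9 with less LOR, which held no LOR UMI, DSG1 was 3.32, 4.95, 6.42 and 9.06 in CT-LCG and 2.86, 4.35, 6.22 and 8.20 in FT-LCG. DSC1 was 1.03, 1.76, 2.96 and 4.59 in CT-LCG and 0.810, 1.78, 3.10 and 4.52 in FT-LCG. Both cadherins were thus higher in each successive bin of each library. The bins below 0.9 were not free of LOR in FT-LCG, where it was at 3.17, 12.2 and 12.6. In CT-LCG it was at 0.0585, 0.314 and 0.0850 in these bins. They are thus an order by keratin share and not a clean order of layers.

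DSG3 was 0.324, 0.284, 0.117 and 0.0386 in CT-LCG, and 0.310, 0.245, 0.140 and 0.0662 in FT-LCG. DSC3 was 2.72, 3.04, 2.79 and 1.92 in CT-LCG, and 2.39, 2.46, 2.09 and 1.64 in FT-LCG. In the cells over 0.9 with more LOR it was 1.36 and 1.09. Both genes were thus lowest in the bins over 0.9. In the bin from 0.5 to 0.9 the DSG3 interval lay below that of the lowest bin in both libraries, and the DSC3 interval, 1.95 to 2.24 beside 2.31 to 2.46, in FT-LCG but not in CT-LCG.

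DSP was 4.79, 6.71, 8.03 and 10.1 in CT-LCG and 6.15, 8.35, 11.5 and 14.2 in FT-LCG. In the cells over 0.9 with more LOR the libraries parted, with DSP at 11.3 and 12.7 and DSG1 at 9.87 and 7.12. In CT-LCG both were thus higher than in the cells with less LOR. By cluster both were instead lower in the LOR-highest than in the KRT10-highest cluster of CT-LCG. DSG1 was at 7.17 beside 10.97 there, and DSP at 8.47 beside 12.4. The cells with more LOR were also deeper, with medians of 28896.5 and 16749 UMIs beside 13925 and 12242. In CT-LCG this gap was partly set by the split, which ordered cells without LOR by depth. The part of depth in the levels of this last step was not tested.

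**Figure D2:**
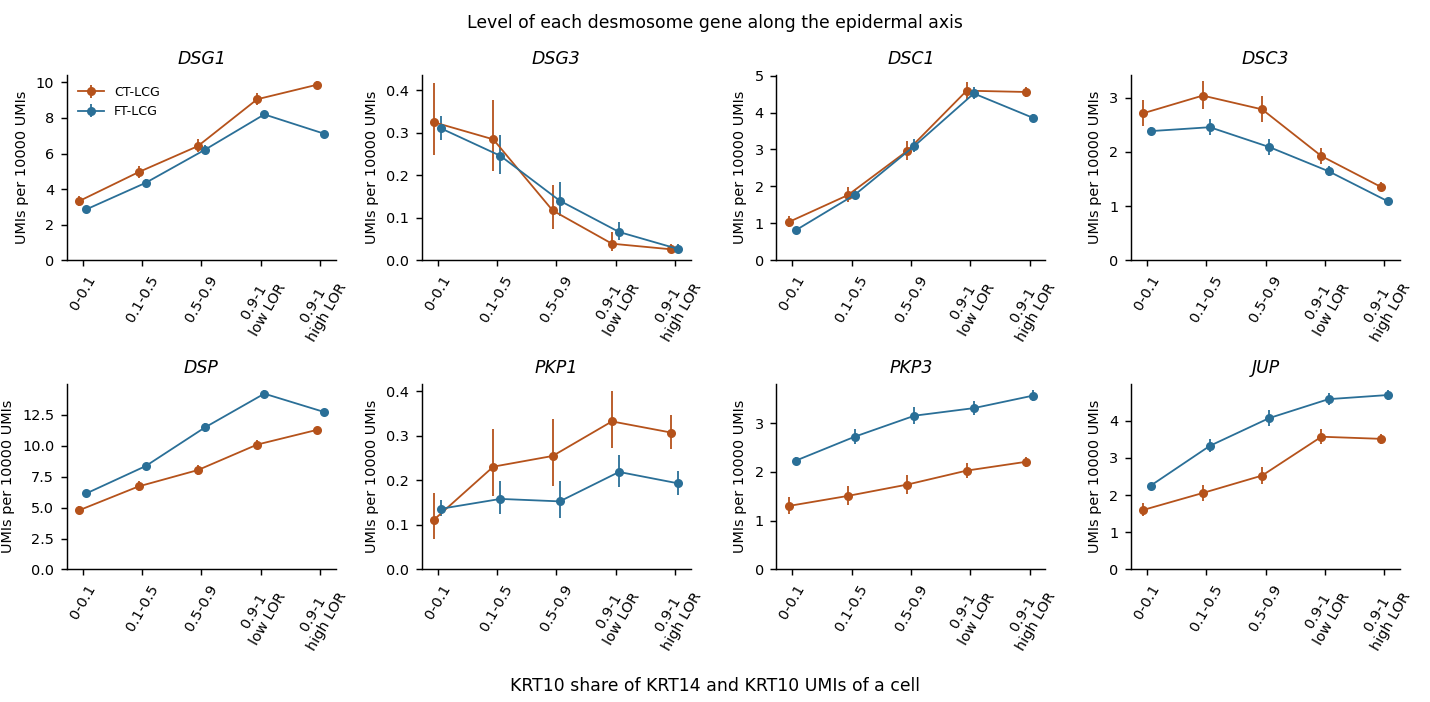
Level of each gene (UMIs per 10000 UMIs, linear axis from 0) in 5 bins of cells ordered by the KRT10 share of KRT14 and KRT10 UMIs, the last split by LOR level, with lines joining the bins of CT-LCG and of FT-LCG and bars for the 95% Poisson interval. Cells without a LOR UMI were ordered by depth in this split. DSG1 goes from 3.32 to 9.87 in CT-LCG while DSG3 goes from 0.324 to 0.0253.

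The balance of the cadherins followed. DSG1 made 93.8% (91.3 to 95.8) of the DSG1 and DSG3 UMIs in the KRT14-highest cluster of CT-LCG and 90.7% (89.2 to 92.0) in FT-LCG, and 99.7% and 99.3% in the KRT10-highest cluster. DSC1 made 34.6% (30.2 to 39.1) and 26.3% (24.4 to 28.3) of the DSC1 and DSC3 UMIs in the KRT14-highest cluster, 74.5% and 73.3% in the KRT10-highest cluster and 89.3% and 79.4% in the LOR-highest cluster. DSC1 thus had fewer UMIs than DSC3 in the KRT14-highest cluster and more in the KRT10-highest and LOR-highest clusters. Between the KRT14-highest and KRT10-highest clusters DSC3 itself stayed within 2-fold, and DSC1 was the gene that differed. DSG1 had more UMIs than DSG3 in every one of these clusters. The endothelial-like cluster, which should lack DSG1, also had a DSG1 share of 97.5% of 40 UMIs and 100% of 118 UMIs. A high DSG1 share is thus not particular to epidermal cells here.

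**Figure D3:**
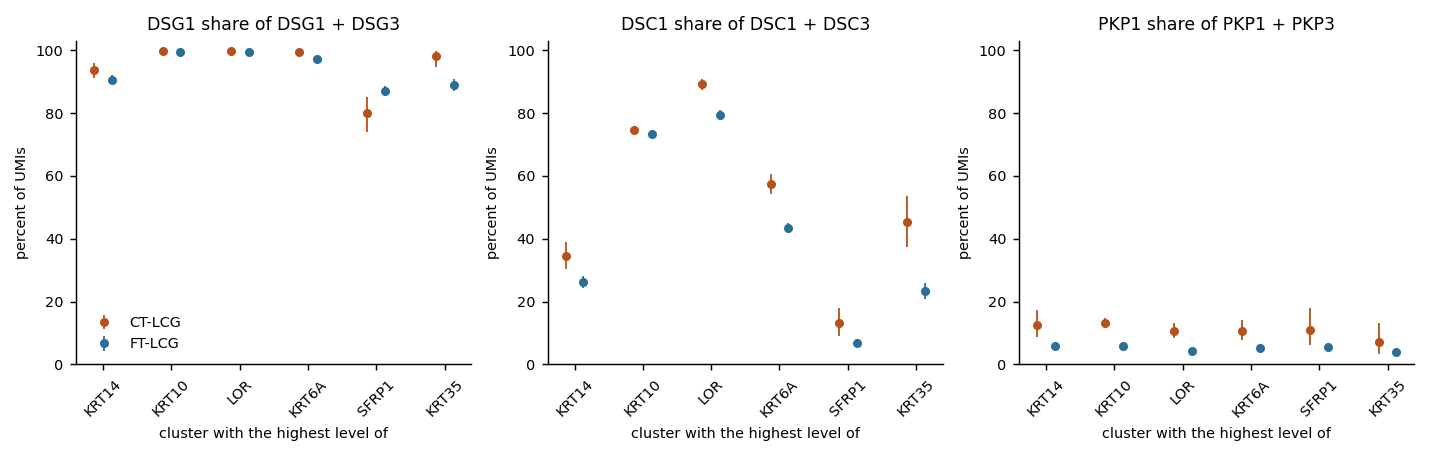
Share of UMIs (percent) of DSG1 among DSG1 and DSG3, DSC1 among DSC1 and DSC3, and PKP1 among PKP1 and PKP3 in 6 clusters, named by the guide gene highest there, for CT-LCG and FT-LCG with 95% Clopper-Pearson intervals. The DSC1 share spans 6.88% to 89.3%, while the PKP1 share is 3.96% to 13.1%.

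Other junctions were described by lists of genes. Of 10 desmosome and cornified partners 6 could be compared between the KRT10-highest and KRT14-highest clusters. PERP, PPL and IVL were higher (background 9.14%) and DSG2 lower (background 5.21%). DSG2, the desmoglein of simple and less differentiated epithelia, had levels of 0.302 and 0.351 in the KRT14-highest cluster, and its log2 ratios were -2.64 and -2.21. IVL, an envelope protein, had the largest difference, from levels of 0.0134 and 0.0214 to 0.304 and 1.27.

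Of 8 adherens junction genes 3 were higher (NECTIN1, NECTIN4 and AFDN, background 9.14%) and CDH3 was lower (background 5.21%). Of the tight junction genes CLDN1, OCLN, TJP1 and CGN were higher. Of 6 hemidesmosome genes compared, which anchor basal cells to the basement membrane, 0 were higher (background 9.14%) and 5 lower (background 5.21%). The lower genes were ITGA6, ITGB4, COL17A1, DST and LAMA3, with ITGB4 at -5.88 and -5.22. ITGA6, ITGB4 and COL17A1 are also on the list of basal markers. The gap junction gene GJB2 was higher. In the step to the LOR-highest cluster CDSN, the corneodesmosin of the outermost desmosomes, was 7.72 and 6.74 higher on the log2 scale. CLDN4 was also higher in that step (background 3.47%), LAMA3 was lower (background 5.32%), and 0 of 7 adherens junction genes passed 2-fold.

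In the clusters picked by the follicle guide genes KRT6A, SFRP1 and KRT35 the desmosome genes took different mixtures. These clusters are counted as follicle by guide gene only. Beside its KRT6A of 7.04 and 15.3, the KRT6A-highest cluster held KRT10 at 213 and 141. The KRT6A-highest cluster had DSG1, DSC1, DSP and JUP higher than the KRT14-highest cluster (4 of 7, background 7.24%) and 0 of 7 lower (background 3.19%). The SFRP1-highest cluster had DSG3 higher (1 of 7, background 4.9%) and DSC1 lower (1 of 7, background 2.98%). The lower DSC1 no longer passed 2-fold with the mean over cells, thinned cells, 20 principal components or no Harmony. It was also lost with gates (the 5% of cells highest in each guide gene) or without the 5% of cells with the most UMIs. The same held with the desmosome genes allowed to define clusters. The KRT35-highest cluster had 0 of 6 higher and 0 of 6 lower, where 6.07% and 9.78% of all genes were. Over 24 pairs of gene and follicle cluster, 5 were thus higher, 4 of them in the KRT6A-highest cluster, and 1 was lower. Among the 24, DSG3 in the KRT6A-highest and KRT35-highest clusters had too few UMIs to be compared. The same was true of PKP1 in the SFRP1-highest and KRT35-highest clusters. With the 5% of cells highest in each guide gene in place of clusters, 0 pairs passed either way, and with 20 principal components 8 were higher. With the desmosome genes allowed to define clusters the 5 higher pairs were all in the SFRP1-highest cluster and DSC1 was lower in the KRT6A-highest cluster.

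In the KRT6A-highest cluster DSG1 had levels of 6.97 and 5.55, DSC1 of 3.41 and 2.41, DSP of 10.5 and 13.1 and JUP of 3.92 and 4.94. With cells thinned to 1000 UMIs DSG1 and JUP no longer passed 2-fold over the KRT14-highest cluster, and PKP1 did. With cells of at least 1000 genes DSC1 no longer passed, and DSC3 and PKP3 did. Against the KRT10-highest cluster 0 of 7 genes were 2-fold higher (background 3.02%) and 0 of 7 lower (background 2.96%). DSC3 came nearest to being higher, with levels of 2.52 and 3.14 and log2 ratios of 0.54 (0.38 to 0.70) and 0.90 (0.81 to 0.99). DSG3 had 5 UMIs there in CT-LCG, too few to place it.

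The SFRP1-highest cluster had the highest DSG3 and DSC3 levels of the 6 clusters in both libraries. DSG3 was at 0.606 (0.437 to 0.820) and 0.472 (0.415 to 0.535), with log2 ratios over the KRT14-highest cluster of 1.64 (0.92 to 2.38) and 1.11 (0.81 to 1.40). DSC3 was at 3.06 and 4.12, with 0.59 and 0.98, short of 2-fold. The higher DSG3 was lost with no Harmony, gates or the desmosome genes allowed to define clusters. With no Harmony DSG1, DSC3, DSP and PKP3 were instead at least 2-fold lower in the SFRP1-highest than in the KRT14-highest cluster. DSC3 passed 2-fold upward with the mean over cells, thinned cells or the desmosome genes allowed to define clusters. DSC1 was at 0.462 and 0.305, and it made 13.1% (9.15 to 18.0) and 6.88% (5.89 to 7.99) of the DSC1 and DSC3 UMIs. This DSC1 share was the lowest of the 6 clusters in both libraries. The DSC1 levels lay below those of the endothelial-like cluster, 1.12 and 0.874, the latter 0.354 without the cell with the most TCHH. They also lay below the 0.686 and 0.455 of the fibroblast-like cluster. DSC1 was thus not above its level in cells outside the epidermis and follicle here.

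DSG1 in the SFRP1-highest cluster was at 2.43 and 3.15, and it made 80.0% and 87.0%, also the lowest shares of the 6 clusters, of the DSG1 and DSG3 UMIs. DSP was at 4.94 and 8.87, JUP at 1.69 and 3.09 and PKP3 at 1.62 and 2.84. In FT-LCG each of these plaque genes was the higher. Only 63 CT-LCG cells and 32 DSC1 UMIs stand behind the CT-LCG values.

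In the KRT35-highest cluster, DSG1 was at 3.57 and 2.24, DSC1 at 1.58 and 0.601, DSC3 at 1.90 and 1.97, DSP at 5.33 and 6.25, PKP3 at 2.62 and 2.59 and JUP at 2.42 and 2.93. None of these was 2-fold from the KRT14-highest cluster. The FT-LCG level of DSC1 was below the endothelial-like level of 0.874 but above the 0.354 found there without the cell with the most TCHH. DSG1, DSP, PKP3, DSC3 and JUP were above the endothelial-like level in both libraries. The hemidesmosome list of this cluster, by contrast, had 5 of 6 genes lower than in the KRT14-highest cluster (background 9.78%).

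For the other junction lists, differences between follicle clusters were not tested. In the SFRP1-highest cluster GJA1, GJB2 and GJB6 were higher than in the KRT14-highest cluster (background 4.9%). Of 7 hemidesmosome genes 0 were higher or lower there (background 4.9% and 2.98%). In the KRT6A-highest cluster the tight junction genes CLDN1, CLDN4, OCLN and TJP1 were higher (background 7.24%). GJB2 was also higher, with log2 ratios of 3.07 and 2.64, and 5 of 6 hemidesmosome genes were lower (background 3.19%). In the KRT35-highest cluster GJA1, with 3.23 and 3.84, and GJB2 were higher (background 6.07%).

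Cells with high TCHH, defined after the clusters were seen as those with at least 20 TCHH UMIs and at least 100 per 10000, numbered 6 and 21. They carried KRT25 at 177 and 669 and KRT27 at 128 and 521 UMIs per 10000, while KRT35 was at 2.87 and 0.0585, and they were spread over 4 and 6 clusters. PKP3 was at 20.1 (13.4 to 29.1) and 9.25 (8.54 to 10.0), above its level in each of the 17 ranked clusters. DSP was at 18.0 and 16.2, DSG1 at 11.5 and 7.35 and DSC1 at 10.1 and 4.13, while DSC3 was at 1.44 and 0.541.

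These cells thus held DSG1 with DSC1 and more PKP3 than any ranked cluster. The CT-LCG values rest on 13920 UMIs in all, and 1 cell gave 139578 of the 683370 UMIs in FT-LCG. DSG3 had 4 UMIs and 1 UMI in them. Fewer than 20 CT-LCG cells are a description of those cells alone.

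Over all 17 clusters with at least 20 cells in each library, the highest levels of 5 of the 8 genes fell in a single cluster that no guide gene pointed to. A cluster led by TRPV3, EPPK1 and ADGRF2, with 300 and 719 cells, had the highest DSG1 (20.6 and 17.8), DSC1 (10.4 and 8.83), DSP (24.3 and 34.0), JUP (9.496 and 9.38) and PKP1 (0.523 and 0.425) in both libraries. In FT-LCG DSG3 (0.564), DSC3 (10.5) and PKP3 (5.51) were highest there too, so that all 8 genes peaked in it in that library. The TRPV3-led cluster was shallow, with medians of 2358.5 and 1461 UMIs per cell. Its ribosomal share of 7.65% and 12.7% was below that of the KRT14-highest cluster. The part of depth and ribosomal share in these levels was not tested.

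A cluster led by EGR4, STAR and THBS1, with 74 and 400 cells, had the highest CT-LCG levels of DSG3 (0.742) and DSC3 (8.77), where its FT-LCG levels were 0.369 and 2.87. The ribosomal share of that cluster was 13.0% and 27.7% and its median depth 2779 and 7494.5 UMIs per cell. Fibroblast-like and endothelial-like cells were at the low end, with DSP at 1.62 to 3.05 (the latter 1.66 without the cell with the most TCHH) and DSG3 at 0 to 0.0488. In the order of levels, neighbouring clusters mostly overlapped between libraries. Of 16 neighbouring pairs 5 were apart for DSG1, 3 for DSP, 2 each for DSG3, DSC3 and PKP1, 1 each for DSC1 and JUP and 0 for PKP3. For DSG1 the TRPV3-led cluster and the KRT10-highest cluster each stood apart from the next below.

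**Figure D4:**
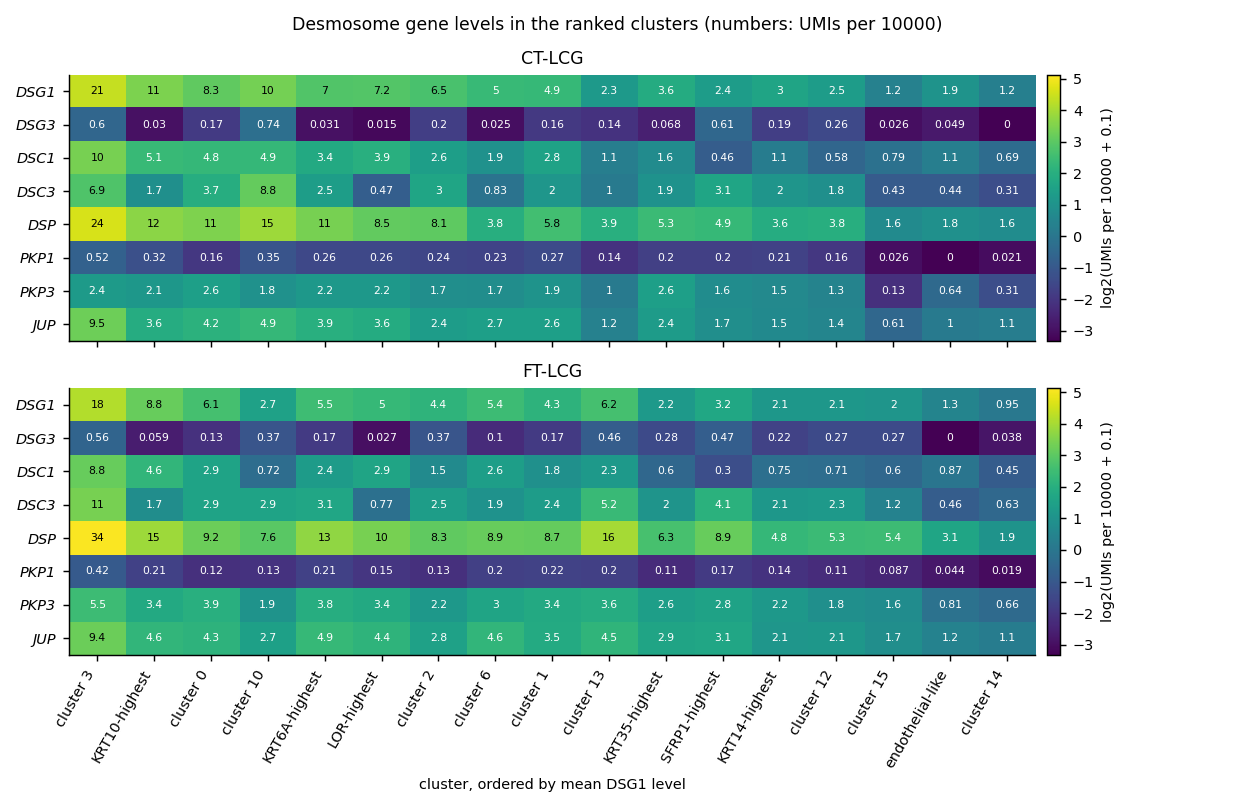
Level of each gene in the 17 ranked clusters of CT-LCG (upper) and FT-LCG (lower), coloured by log2(UMIs per 10000 + 0.1), with the level written in each cell and clusters ordered by mean DSG1 level. Cluster 3, at the left and led by TRPV3, has DSG1 at 20.6 and 17.8, cluster 10 is led by EGR4, and cluster 14, fibroblast-like, lies at the right.

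Shares of cells with a UMI were compared after thinning each cell to 1000 UMIs. DSG1 was then found in 23.7% (16.9 to 31.7) of CT-LCG and 18.9% (16.1 to 21.9) of FT-LCG cells of the KRT14-highest cluster, and in 63.7% and 56.6% of the KRT10-highest cluster. The endothelial-like cluster had 20.0% (9.58 to 34.6) of 45 cells and 10.9% (6.21 to 17.3) of 138 cells. The interval of the KRT14-highest share overlapped the endothelial-like interval in both libraries, and that of the KRT10-highest share did not. DSG3 was found in 7.94% and 8.08% of the SFRP1-highest cells, in 0 of 270 CT-LCG cells of the KRT10-highest cluster, which allows a share of up to 1.11%, and in 0 of 138 endothelial-like FT-LCG cells, which allows up to 2.17%. These limits are 3 counts of the total and concern cells with a UMI at this depth, not cells expressing the gene. Without thinning, 5.93% of the same 270 cells had a DSG3 UMI.

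Without thinning, the DSG1 shares were 87.1% and 76.1% in the KRT14-highest cluster, 99.6% and 99.5% in the KRT10-highest cluster and 41.2% and 22.7% in the endothelial-like cluster, and the DSG3 shares were 36.5% and 33.6% in the SFRP1-highest cluster. Median depths were 10451 and 8476 UMIs per cell in the KRT14-highest cluster, 25721 and 16065.5 in the KRT10-highest cluster, 6435 and 5881 in the SFRP1-highest cluster and 1864 and 2826 in the endothelial-like cluster. Between 0 and 21 cells of each of the 6 clusters and library were too shallow for thinning, and 6 and 16 endothelial-like cells.

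Between CT-LCG and FT-LCG, 0 of the genes compared were 2-fold apart in the KRT14-highest cluster (background 11.9%), the KRT10-highest cluster (11.3%), the LOR-highest cluster (16%) or the SFRP1-highest cluster (18.2%). In the KRT6A-highest cluster 1 of 8 was (background 14.9%), DSG3, with 5 and 121 UMIs and a log2 ratio of -2.45 (-4.10 to -1.19). In the KRT35-highest cluster 2 of 8 were (background 10.5%), DSC1 at 1.39 (0.99 to 1.78) and DSG3, from 3 and 127 UMIs, at -2.03 (-4.33 to -0.45). With the animals and libraries confounded, a difference of type, goat or preparation cannot be told apart. This count of 3 pairs in 48, of which DSG3 in the LOR-highest cluster had fewer than 50 UMIs, was between 2 and 16 under other settings.

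Below 2-fold the libraries leaned the same way in most clusters. The clusters come from the same pair of libraries and do not repeat each other. The share of all genes that leaned 1 way in every cluster was not computed. DSP was lower in CT-LCG in 6 of 6 clusters, with log2 ratios from -0.84 to -0.23, and JUP in 6 of 6, from -0.87 to -0.28, with the interval below 0 in 6 clusters for DSP and 5 for JUP. PKP3 was lower in 5 of 6 and DSC1 higher in 6 of 6. DSG1 was higher in CT-LCG in 5 of 6 clusters and PKP1 in 6 of 6, with the interval above 0 in 5 and 3 of them. PKP1 made 12.7% (8.85 to 17.5) of the PKP1 and PKP3 UMIs in CT-LCG against 5.85% (4.76 to 7.10) in FT-LCG in the KRT14-highest cluster. Outside the axis, 5 of 8 genes were higher in CT-LCG in the EGR4-led cluster, where 21.5% of all genes were. In a cluster led only by genes without a name, 6 of 6 were lower, where 37.4% were.

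**Figure D5:**
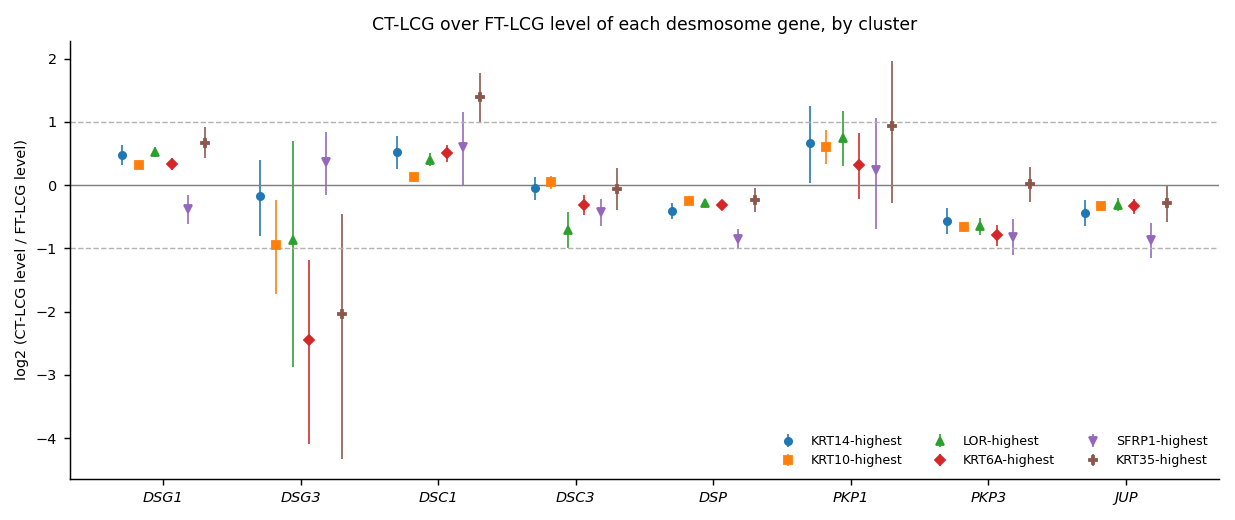
Log2 ratio of the CT-LCG to the FT-LCG level of each gene in 6 clusters, with bars for the 95% counting interval, a grey line at 0 and dashed lines at 2-fold. DSP and JUP lie below 0 in all 6 clusters, and DSG3 in the KRT6A-highest cluster lies at -2.45.

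Over the 34 points given by the 17 clusters in 2 libraries, which share their libraries and differ in depth, the profiles of DSP and JUP had a Pearson r of 0.957, DSG1 and DSC1 0.945 and DSG3 and DSC3 0.831. DSG3 and DSC1 had 0.130. Of 9947 other genes, the profile most like DSG1 (0.935) and JUP (0.936) was that of PPP1R13L. DSG3 was nearest to DSG2 (0.896) and ITGA2 (0.893), DSC3 to MEGF9 (0.8996) and TP63 (0.899), DSC1 to SLC1A1 (0.895), DSP to NECTIN1 (0.918), PKP1 to RALGPS2 (0.898) and PKP3 to TRIM29 (0.911). In the RefSeq gene table of goat assembly ARS1.2 the desmogleins DSG2, DSG3, DSG4 and DSG1 lie in this order beside DSC1 and DSC3 on the same chromosome, with other genes between them.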

How the data were processed

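Skin of 1 CT-LCG and 1 FT-LCG goat was measured by 10x Genomics 3′ single-cell RNA sequencing. Cell Ranger gave the authors the deposited counts (UMIs of each gene in each barcode, not normalized), per the file headers. The kept cells (per the study, over 500 genes and little mitochondrial RNA) and their library came from a deposited list, since the sample labels do not name the type. It left out 2659 CT-LCG and 1589 FT-LCG barcodes, and 11 barcode sequences occur in both libraries. The goat genome build is not given in the sources used here. No doublets were removed and no doublet caller was run. Kept cells had 729 to 172185 UMIs in CT-LCG and 630 to 190503 in FT-LCG.

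Counts were log-normalized, the 2000 most variable genes without the junction genes were reduced to 10 principal components, libraries were joined by Harmony, rewritten for this work, and cells clustered by Leiden on a shared nearest neighbour graph of 20 neighbours. The resolution was the lowest, in steps of 0.1 from 0.4, at which the 7 guide genes peaked in different clusters, 0.9. At 0.4 to 0.8 they peaked in 6 different clusters. At 0.9 TCHH met the rule only through the 1 FT-LCG cell with 6958 TCHH UMIs. Without that cell TCHH would be highest in the KRT35-highest cluster, at 14.4 and 51.7, beside 3.52 and 0.519 in the endothelial-like cluster. The resolution of 0.9 gave 18 clusters, 17 of them with at least 20 cells in each library. A gene was compared between clusters with at least 50 UMIs in each library and called at 2-fold in both libraries. Between libraries it needed 50 UMIs over both, 2-fold and an interval beyond 0. A cluster was named with at least 3 detected markers, more of its list than of any other among the 10 leading genes and a first gene that is on no other list. The TCHH-highest cluster was endothelial-like and was not counted as follicle, a departure from the plan made after it was seen.

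The genes, lists and rules were chosen with earlier results of these data known. Named were the 8 genes, the largest differences of the junction lists each way, where described, and genes of most similar profile. Some results of the tight and gap junction lists are not reported here. The 2-fold rule and the counting interval of a ratio were tried on counts simulated with Poisson error alone. Clustering and Harmony were not part of that simulation. Gene identifiers were matched to the RefSeq table for 27103 of 27137 features. Versions were Python 3.11.15, scikit-learn 1.9.0, leidenalg 0.10.2, scipy 1.17.1, matplotlib 3.10.9, igraph 0.11.9, numpy 2.4.6 and pandas 2.3.3.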

Additional observations from a re-analysis of the deposited data

Results flagged for a closer look

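The difference between the SFRP1-highest and the KRT14-highest cluster had opposite signs in the 2 libraries for DSG1, with a log2 ratio of -0.29 in the former type (CT-LCG) and 0.56 in the latter (FT-LCG). The difference between the KRT35-highest and the KRT14-highest cluster did so for DSC1, with 0.56 (CT-LCG) and -0.32 (FT-LCG). With 1 library for each type, neither difference between the libraries was tested.

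The barcodes that the authors did not keep, which enter no comparison of the report, also held UMIs of the 8 genes. Their summed level was 33.1764 UMIs per 10000 for CT-LCG and 33.1747 for FT-LCG, with DSG1 at 8.09 and 6.25 and DSP at 10.6 and 11.4.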

How the results depend on the processing

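Of 107 recomputed counts under 15 other settings, 77 stayed within 1.5 times the reported count and 30 did not. The causes were not tested. The 4 genes higher in the KRT10-highest than in the KRT14-highest cluster became 2 with gates (the 5% of cells highest in each guide gene) in place of clusters. The 1 gene lower, DSG3, became 0 with a resolution 0.2 higher, with cells of at least 1000 genes and without the 5% of cells with the most UMIs. The 1 gene lower in the LOR-highest than in the KRT10-highest cluster, DSC3, became 0 with thinned cells, 20 principal components, no Harmony, the members allowed to define clusters or gates, and 2 at a fold of 1.5. The 5 follicle pairs higher than the KRT14-highest cluster became 8 with 20 principal components, 0 with gates and 9 with the TCHH-high cells counted as follicle. With the members allowed to define clusters the count of 5 stayed but its pairs moved from the KRT6A-highest to the SFRP1-highest cluster. The 1 pair lower became 0 with the mean over cells, thinned cells, 20 principal components or gates. It was also 0 without the 5% of cells with the most UMIs. It became 3 with the TCHH-highest cluster counted as follicle and 4 with no Harmony. Those 4 were DSG1, DSC3, DSP and PKP3 in the SFRP1-highest cluster. The 3 pairs apart between CT-LCG and FT-LCG became 6 with the mean over cells, 10 with thinned cells, 6 with 10% free RNA subtracted, 5 with a resolution 0.2 higher, 5 with 20 principal components, 6 with another seed, 8 with cells of at least 1000 genes, 5 without the 5% of cells with the most UMIs, 6 with gates and 16 at a fold of 1.5. The free RNA subtracted was the profile of the barcodes not kept, which the study counted as cells before quality control. The number of clusters with a DSG1 share over 95% in both libraries was 3, and 2 to 4 otherwise. The settings with ribosomal genes left out, the TCHH-highest cluster and the TCHH-high cells, and the endothelial-like levels without the cell with the most TCHH, were chosen after seeing the data.

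No paired analysis was possible because each type has 1 library and no result comes from a test. Depth limits DSG3 and PKP1 most, and the CT-LCG values of the SFRP1-highest and KRT35-highest clusters.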
